A study of Mus musculus with 4 samples.

Results

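T cell and cytotoxic genes were followed through 4 RNA-seq libraries of mouse colon. The set holds 10 genes, taken by symbol from a named list, out of 44788 rows of the count table. Cd3e, Cd3g, Cd4, Cd8a and Cd8b1 encode receptor and coreceptor chains of T cells. Gzma, Gzmb, Prf1, Nkg7 and Ifng encode products of activated killer lymphocytes. All 10 symbols were found once each.

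All animals were C57BL/6 mice. WT mice and mice labelled Card9-/- were either left without treatment (day 0 in the sample titles) or given AOM/DSS and collected on day 100. AOM is the mutagen azoxymethane, injected at 10 mg/kg on day 1, and DSS is dextran sulfate sodium (36 to 50 kDa), an irritant of the colon lining given at 2% in drinking water for 7 days in each of 3 cycles, the first starting 5 days later. The combination produces colon tumours on a background of colitis. Each of the 4 combinations of genotype and treatment had 1 library, so treatment cannot be told apart from time of collection, and differences below have no replicate check. The sources used here give neither the age and sex of the mice nor whether a library came from 1 mouse or a pool. Bulk colon tissue was used, in which fewer cells of a type and less RNA per cell cannot be told apart.

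A T cell recognises antigen with a receptor whose signal passes through the CD3 chains, and CD4 or CD8 as coreceptor decides which class of MHC molecule it reads. CD8 is built either of an alpha and a beta chain, as on conventional killer T cells, or of alpha chains alone, as on many lymphocytes that sit within the gut epithelium. Killer T cells and natural killer (NK) cells release perforin, which opens the membrane of the target, and granzymes, which enter and start cell death, and they secrete interferon gamma, which acts on neighbouring cells.

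Library totals ran from 23022885 to 27706567 counts, and the levels below are CPM, counts scaled to library size with TMM factors that correct for differences in RNA composition. Card9 itself was counted in every library, at 1.75 and 5.32 CPM in WT (untreated, AOM/DSS) and at 3.18 and 7.73 CPM where the label says knockout. Card9 was thus higher under the knockout label at either treatment. A wrong label and a disrupted allele that keeps its transcript cannot be told apart from these counts. The wording "labelled knockout" is therefore kept throughout. The library labelled knockout after AOM/DSS was unlike the rest: its correlation with the others across 16383 genes was 0.827 to 0.855, against 0.942 to 0.954 among the other 3. In that library the 18S ribosomal row Rn18s-rs5 took 2.86% of counts (5.20% to 7.11% elsewhere), 3 mitochondrial mRNAs 0.706% (1.57% to 2.23%) and the 10 most abundant rows 6.52% (13.5% to 14.3%), and the part of this in the results below was not tested. Summed smooth muscle markers were 1261 CPM there and 6637 to 8995 CPM elsewhere, while summed epithelial markers of the colon ran from 9329 to 13758 CPM over the 4 libraries. Intervals below are at 95% and cover counting error only, not the spread between animals, which 1 library per group cannot give. Without molecular identifiers some reads can be copies of 1 molecule, so the intervals can be too narrow even for counting error. They are exact for the counts as given, except those of differences of log2 ratios.

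Among the receptor genes, Cd3e ranged from 3.69 to 5.05 CPM and Cd3g stood higher after AOM/DSS. Cd3e (chromosome 9, 44998740 to 45009627, GRCm38) encodes CD3 epsilon, which every T cell receptor complex needs. It had 93 counts in untreated WT, 85 in the untreated library labelled knockout, 102 in WT AOM/DSS and 160 in the AOM/DSS library labelled knockout, or 3.69, 3.91, 4.68 and 5.05 CPM. No neighbouring pair in that order differed beyond the counting interval. Only neighbours were compared in this way, so this does not cover the lowest library against the highest. Cd3e overlaps an antisense gene, Gm48719, and the sources used here do not say whether reads were counted by strand. Cd3g (chromosome 9, 44969572 to 44980431), which encodes CD3 gamma and lies 18.3 kb from Cd3e, stood at 4.05 and 4.33 CPM in the untreated libraries (WT, labelled knockout) and at 7.52 and 9.12 CPM after AOM/DSS. Both AOM/DSS libraries lay above both untreated ones for Cd3g, while the 2 libraries within each treatment did not differ beyond counting error.

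The coreceptor genes did not share 1 pattern. Cd4 (chromosome 6, 124864692 to 124888221), the coreceptor of helper T cells that macrophages and dendritic cells can also express, stood at 8.29 CPM without treatment and 10.7 CPM after AOM/DSS in WT mice. Under the knockout label the values were 13.9 and 16.0 CPM. Cd4 was thus higher under that label at either treatment, by 1.68-fold (1.40 to 2.01) without treatment and by 1.49-fold (1.28 to 1.75) after AOM/DSS. Summed macrophage markers were at 269 and 220 CPM in WT and 215 and 459 CPM in the libraries labelled knockout (untreated, AOM/DSS). Summed dendritic cell markers were at 27.0 and 26.1 CPM in WT and 37.5 and 86.2 CPM under the knockout label. Of the last value, Itgax alone made up 74.3 CPM. The part of these cells in the Cd4 difference was not tested.

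Cd8a (chromosome 6, 71373427 to 71379173), the CD8 alpha chain, ranged only from 5.57 CPM in the untreated library labelled knockout to 10.6 CPM in the AOM/DSS library with that label, with 7.58 CPM (untreated) and 9.90 CPM (AOM/DSS) in WT. Cd8b1 (chromosome 6, 71322788 to 71337494) encodes the CD8 beta chain and lies 35.9 kb from Cd8a. It had 33 and 27 counts in the untreated libraries and 128 and 264 after AOM/DSS (WT, labelled knockout), or 1.31, 1.24, 5.87 and 8.33 CPM. The AOM/DSS libraries were far above the untreated ones for Cd8b1 under both labels, by 4.48-fold in WT (3.04 to 6.79) and 6.71-fold in the libraries labelled knockout (4.50 to 10.4). The corresponding ratios for Cd8a were 1.31 (1.07 to 1.60) and 1.90 (1.54 to 2.36).

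The effector genes had another pattern, in which the AOM/DSS library labelled knockout was highest for all 5 and the untreated library with that label lowest for 4, Gzma being lowest in WT AOM/DSS. Gzmb (chromosome 14, 56258838 to 56262260) encodes granzyme B, a protease that starts apoptosis in target cells. It had 195 counts in untreated WT, 66 in the untreated library labelled knockout, 182 in WT AOM/DSS and 1699 in the AOM/DSS library labelled knockout, or 7.74, 3.04, 8.35 and 53.6 CPM. The last library alone held 73.7% of the summed Gzmb level, and the 2 WT libraries did not differ beyond counting error. Prf1 (chromosome 10, 61297833 to 61304680), the perforin gene, had 24, 13, 27 and 192 counts in the same order, or 0.952, 0.598, 1.24 and 6.06 CPM. Among its 3 lower libraries, neighbours in the order did not differ beyond counting error. The lowest and highest of these 3 (13 and 27 counts) were not compared in this way.

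Gzma (chromosome 13, 113093825 to 113100981), which encodes granzyme A, a protease of another cleavage specificity, stood at 6.55, 4.93, 3.76 and 12.8 CPM in that order of libraries. It was the only one of the 10 genes whose WT libraries went the other way, lower after AOM/DSS than without treatment. Nkg7 (chromosome 7, 43437073 to 43438249), a granule membrane protein of killer lymphocytes, stood at 4.36, 3.18, 6.60 and 13.1 CPM. Each neighbouring pair in its order differed beyond the counting interval. Ifng (chromosome 10, 118441046 to 118445892), the gene of interferon gamma, had 1 count in untreated WT, 0 in the untreated library labelled knockout, 8 in WT AOM/DSS and 101 in the AOM/DSS library labelled knockout. These are 0.0397, 0, 0.367 and 3.19 CPM, and 3 counts, the limit that a count of 0 allows, equal 0.138 CPM in the untreated library labelled knockout. Ifng was near the detection limit in both untreated libraries, where no fold between them is given.

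**Figure D1:**
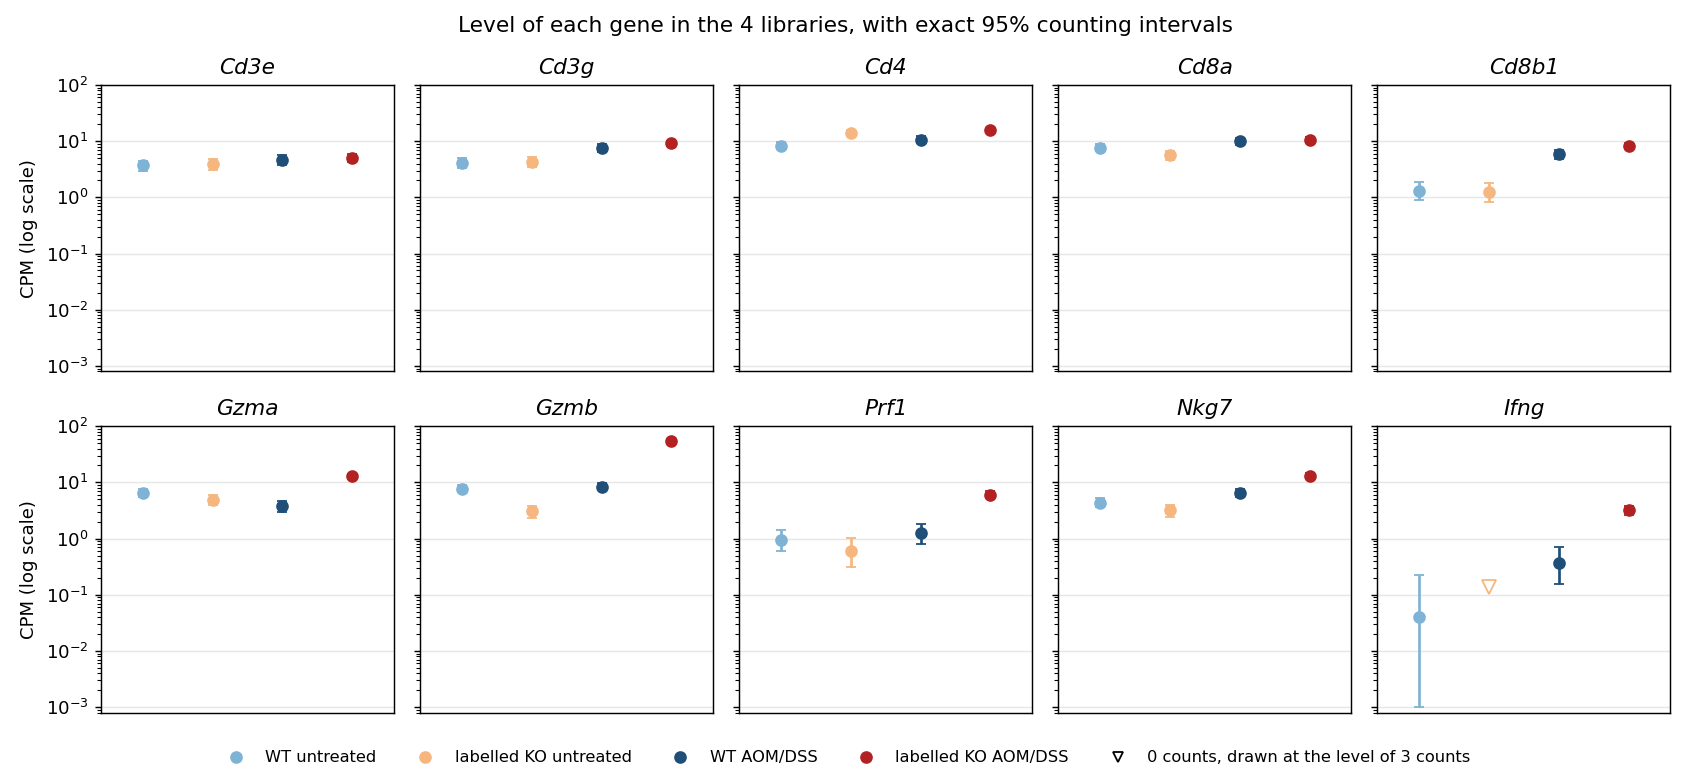
Level of the 10 genes in the 4 libraries, in CPM on a log scale, with exact 95% counting intervals; the open triangle is a library with 0 counts, drawn at the level of 3 counts. The receptor genes in the upper row lie close together except Cd8b1, which stands at 1.24 and 1.31 CPM untreated and at 5.87 and 8.33 CPM after AOM/DSS, while in the lower row the AOM/DSS library labelled knockout is highest in every panel.

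The start-site windows of the 4 granule genes are shown as those of genes with a common role, and each window holds a match to the core motif of Runx factors, which act in killer T cells. All 10 members were highest in the same library, so that does not set these 4 apart. The sequences of Gzmb, Gzma and Prf1 follow. Each covers the 250 bases before the RefSeq start site (GRCm38.p6), on the gene's strand from 5′ to 3′. The windows are chr14:56262335-56262584 for Gzmb and chr13:113100982-113101231 for Gzma, both on the minus strand, and chr10:61297586-61297835 for Prf1, on the plus strand. Capitals mark matches on either strand to TGTGGT (Runx), GGTGTNA (T-box), TGANTCA (AP-1), TGACGT (the core of a cyclic AMP response element) or TTCNNNGAA (GAS, the site of STAT factors).
Gzmb: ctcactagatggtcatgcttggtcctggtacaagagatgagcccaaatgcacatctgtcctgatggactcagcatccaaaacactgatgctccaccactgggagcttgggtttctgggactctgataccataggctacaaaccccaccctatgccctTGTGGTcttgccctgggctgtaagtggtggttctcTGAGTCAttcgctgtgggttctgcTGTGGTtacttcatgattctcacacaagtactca
Gzma: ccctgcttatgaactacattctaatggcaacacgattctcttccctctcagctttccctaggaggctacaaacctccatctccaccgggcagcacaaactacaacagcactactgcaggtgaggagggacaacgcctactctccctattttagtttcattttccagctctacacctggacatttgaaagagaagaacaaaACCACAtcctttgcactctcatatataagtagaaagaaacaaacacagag
Prf1: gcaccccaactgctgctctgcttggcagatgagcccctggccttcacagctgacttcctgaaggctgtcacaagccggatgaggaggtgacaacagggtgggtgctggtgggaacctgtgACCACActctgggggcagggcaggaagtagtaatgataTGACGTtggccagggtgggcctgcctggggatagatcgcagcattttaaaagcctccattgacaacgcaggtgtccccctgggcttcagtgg

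Of the 8 genes with a RefSeq window (all but Cd4 and Cd8b1), the 4 granule genes held the Runx letters and Cd3e, Cd3g, Cd8a and Ifng did not. The same letters occur in 14.0% of all 32851 windows. Gzmb had 2 Runx matches, 93 and 34 bases before the start site at their first base, with an AP-1 match between them at 58 bases. Nkg7 had a T-box match, a motif found in 8.61% of windows, and a GAS match, found in 7.02%, and Ifng had a GAS match at the far end of its window. AP-1 letters occur in 6.75% of windows and the TGACGT letters, matched in Prf1 and Cd3e, in 6.47%. A match describes letters only and is no sign of binding.

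In the WT pair, which asks what AOM/DSS altered in WT colon, Cd8b1 was the only gene of the 10 called at least 2-fold higher, and 0 were called 2-fold lower. The call also asks for 50 counts or more in whichever library is higher. By this rule 5.12% of 15356 genes were higher and 5.73% lower. In this pair 8 of the 10 members reached 50 counts, Prf1 and Ifng staying below. Cd3g was 1.86-fold (1.44 to 2.40) and Nkg7 1.51-fold higher (1.17 to 1.96), whereas Gzma was 1.74-fold lower (1.33 to 2.30) and the Gzmb ratio was 1.08 (0.877 to 1.33). Ifng, at 8 counts against 1, was 9.25-fold higher with an interval of 1.24 to 410. The median log2 ratio of the 10 genes was 0.38, against 0.02 for all genes tested. In the same pair Ptprc, the gene of the pan-leukocyte protein CD45, was 2.14-fold higher (1.97 to 2.32), all 8 B cell markers were at least 2-fold higher (9.64 and 129 CPM in sum) and adipocyte markers stood at 462 and 203 CPM in sum. The part of these other cells in the ratios of the 10 genes was not tested.

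The libraries labelled knockout asked the same of that label, and here 7 of the 10 genes were at least 2-fold higher after AOM/DSS and 0 were 2-fold lower. All 10 reached 50 counts, and the shares over 15900 genes were 16.5% higher and 18.0% lower. Of the members counted in both libraries Gzmb differed most, at 17.7-fold (13.8 to 22.9), rank 264 of 15900 genes from the highest ratio. Prf1 was 10.1-fold (5.78 to 19.4), Nkg7 4.13-fold (3.20 to 5.41) and Gzma 2.60-fold higher (2.09 to 3.24). Ifng was at least 23.1-fold higher when the library with 0 counts was set to 3 counts, and the exact lower limit for 101 counts against 0 was 18.4-fold. Cd8b1 and Cd3g completed the 7, Cd3g at 2.11-fold (1.67 to 2.69), and Cd3e (1.29, 0.986 to 1.70) and Cd4 (1.15, 0.994 to 1.33) did not differ beyond counting error. The median log2 ratio was 1.71, against 0.03 for all genes tested. Scaling by library totals alone moved the median of all genes in this pair to 0.32, and the share of higher genes among those past the rule from 47.8% to 63.6%, and the 10 genes then gave 8 higher and 0 lower.

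Without treatment, the comparison of the label with WT gave 0 members at least 2-fold higher and 1 lower. The shares over 15352 genes were 5.88% higher and 4.92% lower, and 7 of the 10 genes reached 50 counts. The lower gene was Gzmb, at 3.04 against 7.74 CPM, 2.55-fold lower (1.92 to 3.42). Gzma and Nkg7 also leaned lower, by 1.33-fold (1.04 to 1.71) and 1.37-fold (1.01 to 1.88), as did Cd8a, by 1.36-fold (1.08 to 1.72), while Cd4 was higher. The median log2 ratio of the 9 genes with a ratio was -0.41, against -0.01 for all genes tested. Adipocyte markers summed to 462 CPM in the WT library and 44.8 CPM in the other, and B cell markers to 9.64 and 103 CPM, and the part of these differences in the Gzmb ratio was not tested.

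After AOM/DSS, 4 of the 10 genes were at least 2-fold higher in the library labelled knockout than in WT and 0 were 2-fold lower. The shares over 15779 genes were 14.0% higher and 14.0% lower. All 4 were effector genes. Ifng was 8.69-fold (4.25 to 20.7), Gzmb 6.43-fold (5.51 to 7.53), Prf1 4.90-fold (3.26 to 7.62) and Gzma 3.40-fold higher (2.68 to 4.37). Nkg7, at 1.99-fold (1.64 to 2.42), lay just under the 2-fold line. Of the receptor and coreceptor genes, Cd3e (1.08, 0.837 to 1.40), Cd8a (1.07, 0.897 to 1.27) and Cd3g (1.21, 0.998 to 1.48) did not differ beyond counting error. Cd4, at 1.49-fold (1.28 to 1.75), and Cd8b1, at 1.42-fold (1.15 to 1.77), were higher by less than 2-fold. The median log2 ratio was 0.79, against 0.03 for all genes tested. Library totals alone moved the latter to 0.30 and the share of higher genes among those past the rule from 50.0% to 64.4%, and the count for the 10 genes was then 5.

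**Figure D2:**
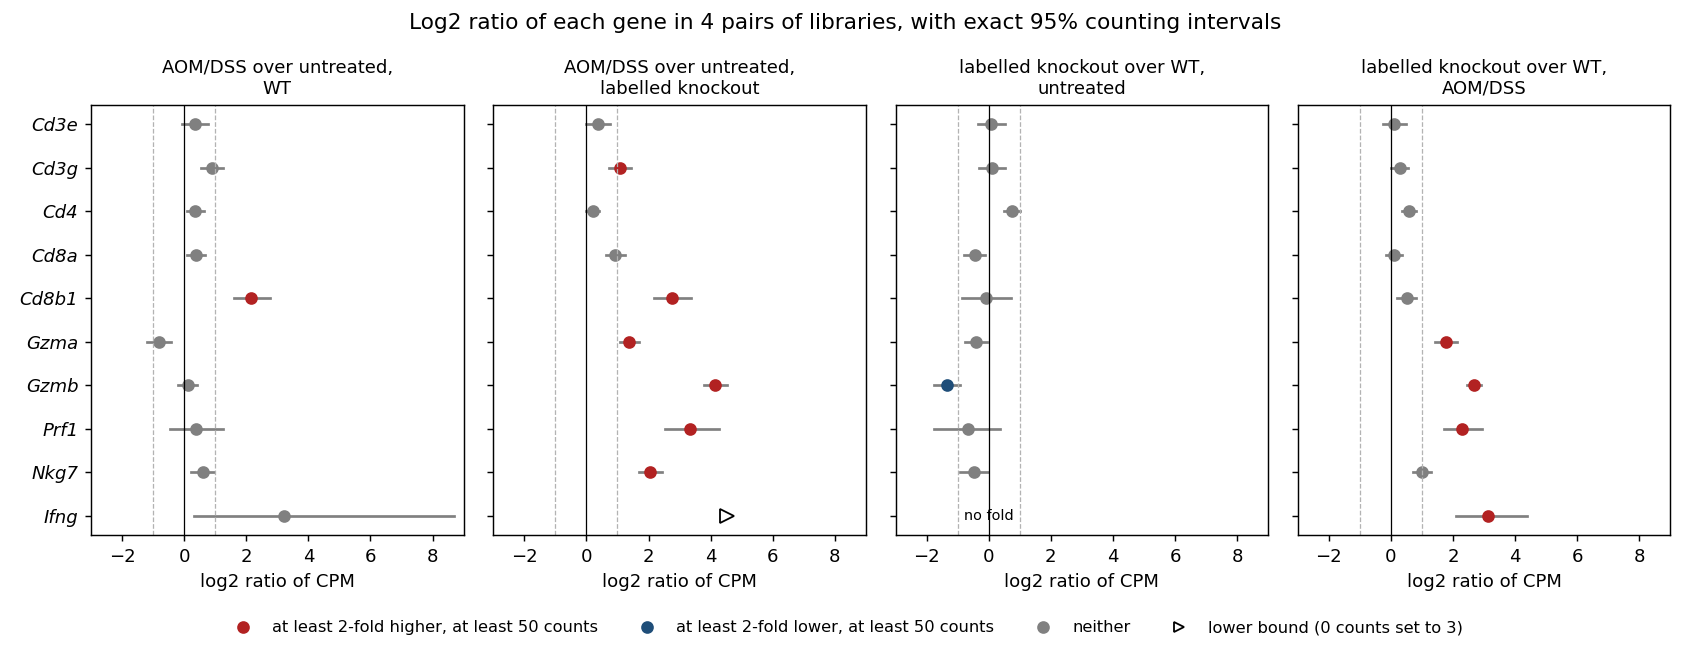
Log2 ratio of CPM for the 10 genes in the 4 pairs of libraries, with exact 95% counting intervals and dashed lines at 2-fold; red points are at least 2-fold higher with at least 50 counts, the blue point at least 2-fold lower, and the open triangle a lower bound. Cd8b1 is high in both AOM/DSS comparisons (2.16 and 2.75), whereas Gzmb is at 0.11 in the WT pair and 4.14 in the pair labelled knockout.

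The AOM/DSS ratios in the 2 labels were set against each other as a difference of log2 ratios, labelled knockout minus WT. For Gzmb the difference was 4.03 (3.57 to 4.49), for Prf1 2.96 (1.83 to 4.10), for Gzma 2.18 (1.69 to 2.67) and for Nkg7 1.45 (0.94 to 1.96). For Cd3e it was 0.03 (-0.53 to 0.58), for Cd3g 0.18 (-0.31 to 0.67), for Cd4 -0.17 (-0.50 to 0.17) and for Cd8b1 0.58 (-0.21 to 1.38), all of which include 0. For Cd8a it was 0.54 (0.13 to 0.95), close to that of Cd8b1 but with an interval above 0. The 4 granule genes thus had larger differences than the 5 receptor genes. The Cd4 difference changed sign, to 0.20, when libraries were scaled by totals alone.

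The sum over the 5 receptor genes was 24.9 CPM in untreated WT, 29.0 CPM in the untreated library labelled knockout, 38.7 CPM after AOM/DSS in WT and 49.1 CPM after AOM/DSS under the knockout label. The sum over the 5 effector genes was 19.6, 11.7, 20.3 and 88.8 CPM in the same order. In the AOM/DSS pair the effector sum was 4.37-fold higher in the library labelled knockout (3.95 to 4.84), or 2.94-fold (2.57 to 3.38) without Gzmb, and the receptor sum 1.27-fold higher (1.17 to 1.38).

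Ratios of 2 genes within a library do not depend on how libraries are scaled. Gzmb counts per Cd3e count were 2.10 in untreated WT (1.63 to 2.71), 0.776 in the untreated library labelled knockout (0.554 to 1.08), 1.78 in WT AOM/DSS (1.39 to 2.30) and 10.6 in the AOM/DSS library labelled knockout (9.03 to 12.6). Prf1 per Cd3e was 0.258, 0.153, 0.265 and 1.20, and Ifng per Cd3e reached 0.631 in the last library against 0.0784 in WT AOM/DSS. The intervals of that last library overlapped none of the others for Gzmb, Prf1 and Ifng per Cd3e. Prf1 per Gzmb was between 0.113 and 0.197 in the 4 libraries with overlapping intervals, which rest on 13 to 27 Prf1 counts in 3 of them. Gzmb per Gzma did differ, at 1.18 and 2.22 in WT (untreated, AOM/DSS) and at 0.617 and 4.20 (3.76 to 4.69) under the knockout label, so the granule genes did not all keep 1 proportion.

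The 2 CD8 chains stood in another proportion after treatment. Cd8b1 counts per Cd8a count were 0.173 (0.116 to 0.251) and 0.223 (0.141 to 0.341) in the untreated libraries (WT, labelled knockout). After AOM/DSS they were 0.593 (0.472 to 0.741) and 0.788 (0.668 to 0.929), so the intervals of the 2 treatments did not overlap. Cd8a per Cd4 was 0.914 and 0.927 in WT (untreated, AOM/DSS) and lower under the knockout label at either treatment, at 0.401 and 0.662. Cd3e per Ptprc was 0.103 without treatment (0.0822 to 0.127) and 0.0611 after AOM/DSS (0.0495 to 0.0746) in WT, so Cd3e was lower relative to the pan-leukocyte gene. Under the knockout label these values were 0.0712 (0.0565 to 0.0888) and 0.0506 (0.0429 to 0.0593), with overlapping intervals. Cd3g per Ptprc did not follow, at 0.113 and 0.0982 in WT and at 0.0788 and 0.0913 under the knockout label, with overlapping intervals within each label.

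**Figure D3:**
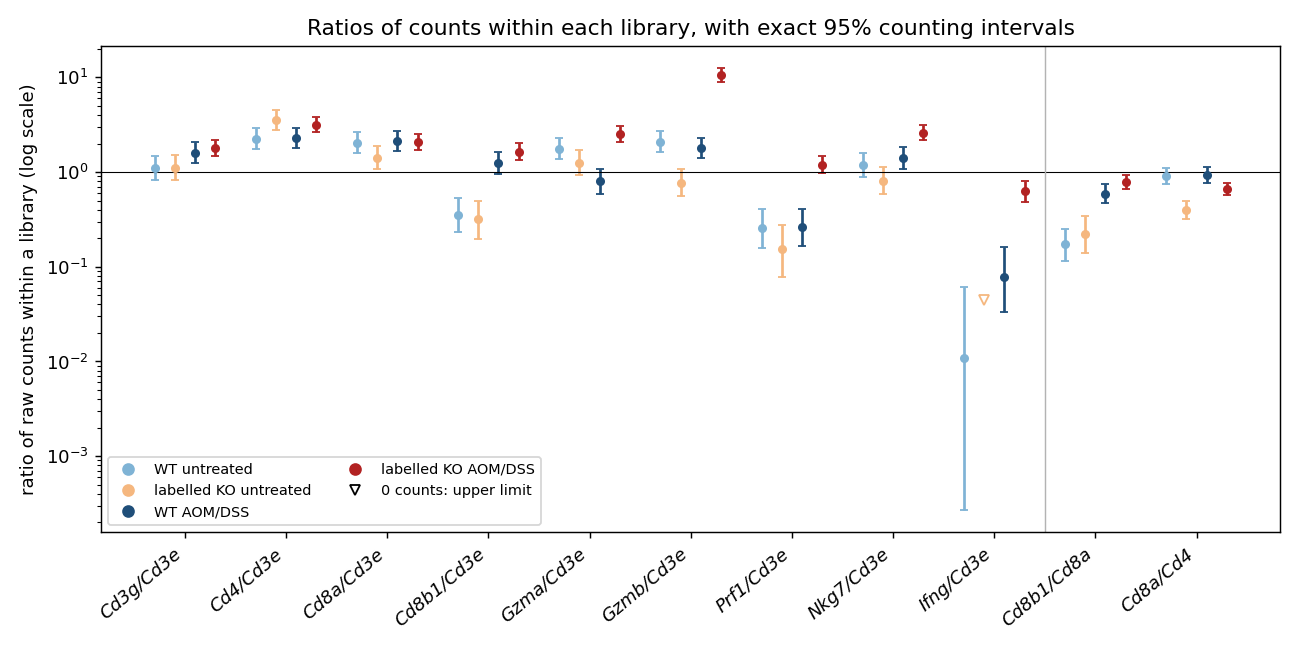
Ratio of raw counts of 2 genes within each library, on a log scale, with exact 95% counting intervals; the open triangle is the upper limit for 0 counts. Gzmb per Cd3e reaches 10.6 in the AOM/DSS library labelled knockout and stays at or below 2.10 in the others, and Cd8b1 per Cd8a separates the AOM/DSS libraries (0.593 and 0.788) from the untreated ones (0.173 and 0.223).

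Levels of different genes were compared per kilobase of exon (GENCODE M21). On that scale Gzma led in untreated WT, at 6.51 CPM per kb, followed by Gzmb at 5.39 and Nkg7 at 4.77. In the AOM/DSS library labelled knockout Gzmb led at 37.3 CPM per kb, followed by Nkg7 at 14.4 and Gzma at 12.7, while Cd3e was lowest at 1.24. Ifng was last in the other 3 libraries, and Prf1 next to last. The exon lengths behind these values run from 914 bases for Nkg7 to 4080 for Cd3e and depend on the annotation.

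Other genes of T cell receptor signalling and T cell identity were taken as a list of 20. In the AOM/DSS pair 4 of them were at least 2-fold higher in the library labelled knockout and 0 lower, with a median log2 ratio of 0.66. A count of 4 in 20 is near the 14.0% of all genes that were higher in this pair, though 19 of the 20 had a ratio above 1. Among the receptor chain genes Trac was 1.98-fold (1.58 to 2.48) and Trbc2 1.67-fold higher (1.37 to 2.04). Trdc went the other way at few counts, 13 in WT and 7 in the library labelled knockout. The highest ratio was that of Zap70, the kinase recruited to the activated receptor, at 3.31-fold (2.74 to 4.01), followed by Lcp2, an adaptor that myeloid cells also express, at 2.35-fold. Between AOM/DSS and untreated libraries 9 of the 20 were at least 2-fold higher in WT and 15 in the libraries labelled knockout, with 0 lower in either, against 5.12% and 16.5% of all genes higher. In WT the largest ratios were those of Ubash3a, a dampener of receptor signals (4.47-fold), Cd5, an inhibitory T cell receptor (3.50-fold), and Cd247, the CD3 zeta chain (3.47-fold). The CD3 delta gene, Cd3d, had levels of 1.86 and 5.59 CPM in WT (untreated, AOM/DSS) and 3.36 and 5.93 CPM under the knockout label, so the CD3 chain genes did not all follow Cd3e. Without treatment 3 of the 20 were at least 2-fold higher in the library labelled knockout and 0 lower, beside 5.88% and 4.92% of all genes. In that pair 15 of the 20 reached 50 counts, and 19 did in each of the other pairs.

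A list of 20 other granule and death ligand genes had 8 members at least 2-fold higher and 1 lower after AOM/DSS in the libraries labelled knockout, and 3 higher and 0 lower in WT, where the shares of all genes higher were 16.5% and 5.12%. Gzmk, a granzyme of memory T cells, was 8.50-fold (4.47 to 18.2) and Stx11, a syntaxin needed for granule release, 8.55-fold higher (6.75 to 11.0) in the pair labelled knockout. Tnfsf10, the death ligand TRAIL and an interferon-induced gene, stood at 116 CPM in the AOM/DSS library labelled knockout, against 19.5 CPM without treatment under that label and 22.5 and 17.6 CPM in WT (untreated, AOM/DSS). In WT the leading gene was Srgn, the granule proteoglycan that myeloid cells also make, at 6.47-fold (5.77 to 7.27). In the AOM/DSS pair 5 of the 20 were higher and 0 lower, beside 14.0% and 14.0% of all genes. Without treatment 0 passed in either direction, beside 5.88% and 4.92% of all genes. Of the 20, 13 reached 50 counts in the pair labelled knockout and the AOM/DSS pair, and 10 in the WT and untreated pairs.

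NK cell and intraepithelial lymphocyte receptors, a list of 16, had 5 members at least 2-fold higher in the library labelled knockout of the AOM/DSS pair and 0 lower, where 14.0% of all genes were higher and 14.0% lower. These included Cd244 (3.59-fold, 2.90 to 4.48), Klrc1, an inhibitory NK receptor chain (3.44-fold), and Il2rb, the shared receptor chain for interleukins 2 and 15 (2.58-fold). Of the 16 listed, 10 reached 50 counts in this pair. The defining NK cell markers had few counts in every library. Ncr1 had 21 and 1 counts in WT (untreated, AOM/DSS) and 2 and 7 under the knockout label, and Klrb1c had 35 and 15 counts in WT and 20 and 35 under that label. In the untreated pair and in the WT AOM/DSS pair 7 of the 16 reached 50 counts. The untreated pair had 0 members past the rule in either direction, beside 5.88% and 4.92% of all genes. The WT AOM/DSS pair had 2 higher and 0 lower, beside 5.12% and 5.73% of all genes. The higher ones were Fcer1g and Tyrobp, adaptors that myeloid cells share.

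Factors of T cell fate, a list of 12, had 8 members at least 2-fold higher and 2 lower after AOM/DSS in the libraries labelled knockout, against 16.5% and 18.0% of all genes. Foxp3, the factor of regulatory T cells, was 6.23-fold (4.01 to 10.2) and Prdm1 3.26-fold higher. Lef1 (17.2-fold) and Tcf7 (3.44-fold) act in T cells and in Wnt-driven epithelium alike, so bulk levels do not tell the source. Tbx21, the T-bet gene that drives Ifng, had 55 and 47 counts in WT (untreated, AOM/DSS) and 25 and 115 counts under the knockout label. The AOM/DSS pair had 6 higher and 2 lower, beside 14.0% and 14.0% of all genes.

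Genes of the interferon gamma receptor, its signalling and its targets formed a list of 20. In the AOM/DSS pair 11 were at least 2-fold higher in the library labelled knockout and 0 lower, with a median log2 ratio of 1.93, where 14.0% of all genes were higher. Ciita, the master regulator of MHC class II, stood at 24.5 CPM in WT and 69.5 CPM in the library labelled knockout of that pair, against 11.6 and 27.9 CPM without treatment. Ido1, which degrades tryptophan, stood at 6.63 and 7.29 CPM in WT (untreated, AOM/DSS) and at 1.93 and 392 CPM under the knockout label. Cxcl9, a T cell attractant induced by interferon gamma, stood at 2.62 and 6.37 CPM in WT and at 2.99 and 244 CPM under that label. Both were highest in the AOM/DSS library labelled knockout, as were all 10 members. Ifngr1, the gene of a receptor chain, was lowest there, at 110 CPM. Any part of Ifng in these levels was not tested. In WT the AOM/DSS pair had 3 higher and 0 lower, beside 5.12% and 5.73% of all genes. The pair labelled knockout had 11 higher and 2 lower, beside 16.5% and 18.0% of all genes. The lower ones were Ifngr1 (275 CPM untreated, 110 CPM after AOM/DSS) and Il18 (61.1 and 19.1 CPM). The untreated pair had 2 higher and 3 lower, beside 5.88% and 4.92%. Of the 20, 18 reached 50 counts in the pair labelled knockout and the AOM/DSS pair, and 16 in the WT and untreated pairs.

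Several gene lists of other cells were also high in the AOM/DSS library labelled knockout. Mast cell genes were high there, with Mcpt2 at 77.3 CPM against 0.0793 to 1.47 CPM in the other 3 libraries and Cpa3 at 10.5 CPM against 0.238 to 0.460. Of 8 mast cell markers 7 were at least 2-fold higher than in WT AOM/DSS, where 14.0% of all genes were higher and 14.0% lower. The exception was Kit, which pacemaker cells of the gut wall also express. Macrophage markers summed to 459 CPM against 215 to 269 and proliferation genes to 1085 CPM against 370 to 605. Of 8 macrophage markers 6 were at least 2-fold higher than in WT AOM/DSS and 2 were lower. The lower ones were Cd163 (1.17 against 8.80 CPM) and Mertk (37.2 against 84.8 CPM). Dendritic cell markers summed to 86.2 CPM against 26.1 to 37.5, but Itgax alone, which macrophages also express, made up 74.3 CPM, and 1 of the 8 was at least 2-fold higher than in WT AOM/DSS. B cell markers went another way, at 18.6 CPM here against 129 CPM in WT AOM/DSS. Summed neutrophil markers stood at 251 CPM here and 396 CPM in WT AOM/DSS. Without treatment the neutrophil sum was 3.97 CPM in WT and 60.2 CPM under the knockout label, 54.7 CPM of the latter being Ly6g. Of 7 neutrophil markers 1 was at least 2-fold lower here than in WT AOM/DSS and 0 were 2-fold higher. The part of these cells in the Gzmb, Prf1 and Ifng levels was not tested.

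**Figure D4:**
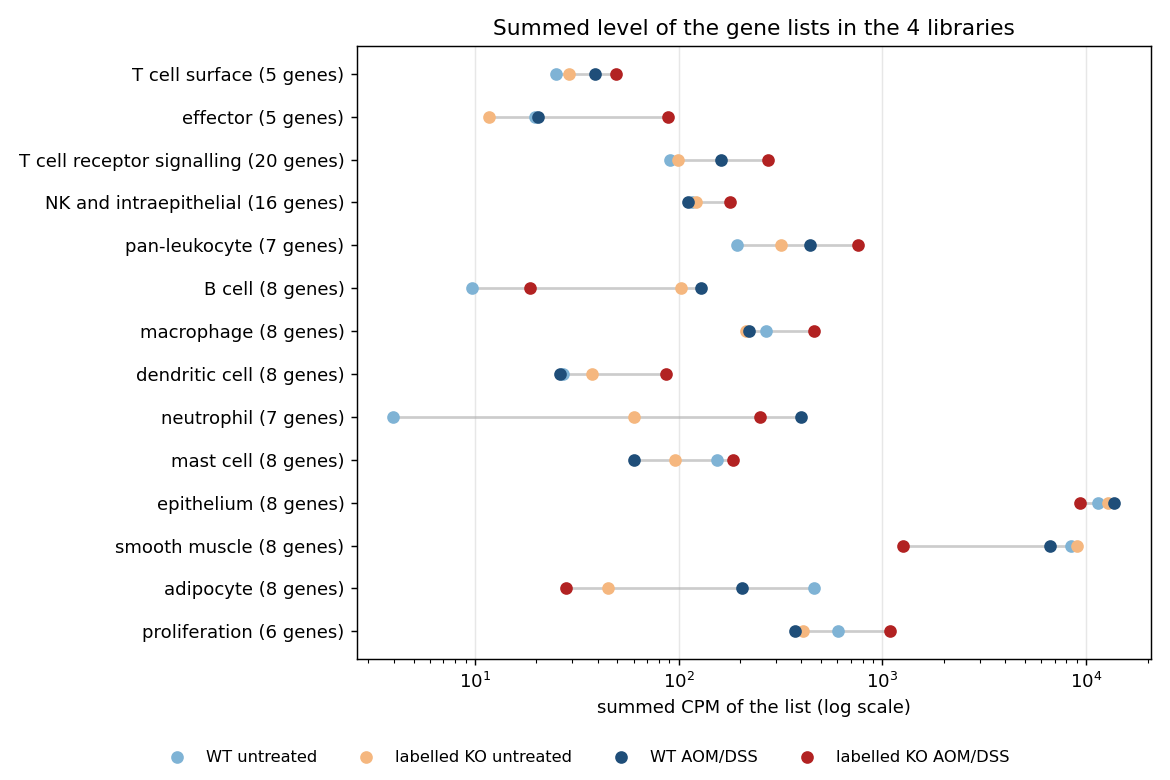
Summed CPM, on a log scale, of the receptor and effector genes and of 12 marker lists in the 4 libraries. The effector sum lies at 88.8 CPM in the AOM/DSS library labelled knockout and at 11.7 to 20.3 CPM in the others, while the T cell surface sum spans 24.9 to 49.1 CPM.

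The genes whose centred log2(CPM + 1) profile over the 4 libraries lay nearest to the mean of Cd3e and Cd3g, out of 13302 genes, were Tlr6, Hdac8, Vps29, Gatc and Slc19a2, with a largest difference in any library of 0.02 to 0.05. For the mean of Gzma, Gzmb, Prf1 and Nkg7 they were Tubb2b, Ccne1, Apol6, Mapk4 and Ly6a, at 0.03 to 0.10. With 4 libraries many genes come this close, and the likeness is a description only.

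Across the 4 libraries an additive model of genotype label and treatment could be fitted, in which the 1 residual degree of freedom holds the interaction. By edgeR's quasi-likelihood test with Benjamini-Hochberg adjustment, 0 of 18973 genes (0.00%) were called at an adjusted p under 0.05 for treatment or for label, with 1148 and 746 at an unadjusted p under 0.05. Ifng was removed by the filter on low counts. Of the other members, Cd8b1 alone passed an unadjusted 0.05 for treatment, with a log2 difference of 2.44 and an edgeR adjusted p of 0.613, and 0 passed it for label. DESeq2 called 337 genes for treatment (1.87% of 18053) and 260 for label (1.44%). Among the members it called Cd8b1 for treatment, at an adjusted p of 0.0491, and gave Ifng 0.0616 and Gzmb 0.199. Cd8b1 was higher after AOM/DSS under both labels, whereas the effector genes, which differed most under 1 label, put their difference into the residual.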

How the data were processed

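The authors deposited whole-number read counts for each gene symbol, not normalized. Colon RNA was isolated with Trizol and sequenced from Ion Proton libraries, per the labels' protocols. The submitters' processing notes name GRCm38 and mm10 as the build. The sources used here give no aligner, counter, annotation or strand setting. The table held 44788 rows and 0 columns of other samples, and 27 symbols had been turned into dates.

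TMM factors from edgeR 4.0.16 under R 4.3.3, used to scale counts to CPM, were 0.992 and 0.947 for WT (untreated, AOM/DSS) and 0.931 and 1.14 for the knockout label. Ratios are of CPM without a pseudocount, because a pseudocount understates differences of genes at a few CPM. Intervals are exact (Clopper-Pearson on the sum of both counts, or Poisson for a level), computed with scipy 1.17.1. That of a difference of log2 ratios uses the reciprocal counts. A count of 0 was set to 3 counts, and pairs with both counts at or under 3 have no ratio. The size rule asks for a 2-fold or larger ratio and 50 counts or more in whichever library is higher. The additive fit used filterByExpr and had a biological coefficient of variation of 0.444; DESeq2 1.42.0 was the alternative. Scripts were tested on simulated data. All symbols of the lists but 4 were in the table as written; those were matched as Emr1 (for Adgre1), COX1, ND1 and CYTB. Positions and exon lengths came from GENCODE M21 (GRCm38), start-site windows from RefSeq (GRCm38.p6), with 8 of 10 genes matched.

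The members, lists and alternatives were chosen with earlier results of these data known. Named genes were all 10 members, Card9, Ptprc, at most 4 genes per related list and comparison with the largest absolute ratio among those with at least 50 counts, and the 5 nearest profiles per set. Tbx21, Ncr1, Klrb1c, Trac, Trbc2, Trdc, Rab27a, Zbtb7b and Ifngr1 were named outside that rule after their values were seen. So were Il21, other T cell cytokines, neighbours of Gzmb and marker genes of other cells. The Runx windows were chosen likewise. Some results on list genes are not reported here. Alternatives were other scalings, pseudocounts of 0.5, 1 and 5 CPM, other count minimums, thinning to 23022885 counts, and leaving out genes above 1% of a library.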

Additional observations from a re-analysis of the deposited data

Results flagged for a closer look

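Gzma differed in direction between the genotype labels, which was not tested. It was 1.74-fold lower after AOM/DSS than without treatment in WT (82 against 165 counts) and 2.60-fold higher in the libraries labelled knockout (405 against 107 counts), and the difference of the log2 ratios was 2.18. With 1 library per condition, this describes 4 libraries.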

How the results depend on the processing

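No paired analysis was possible because each group has 1 library and so no replicate numbers to pair, and no library could be left out without losing its comparison. Under the alternatives that can alter a single ratio (count minimums cannot), 282 of 312 ratios of members stayed within their counting interval and 30 moved outside it. The ratio of Cd3e between the untreated libraries changed sign with library totals alone, from a log2 of 0.08 to -0.01. The count of members at least 2-fold higher after AOM/DSS in WT (1) was 0 with 5 CPM added or with at least 200 counts required, and 2 with no count minimum. Over all genes the higher ones in that pair went from 786 to 314, 440 and 1972 under these settings. In the libraries labelled knockout the count of 7 became 3 with 5 CPM added, and the median log2 ratio of 1.71 became 0.78. Over all genes the higher ones in that pair went from 2621 to 1408. The 1 member lower under the label without treatment was lost with 5 CPM added and with at least 200 counts (0 each). Over all genes the lower ones there went from 755 to 248 and 413. In the AOM/DSS pair the 4 higher members became 2 with 5 CPM added and 2 with at least 200 counts. Over all genes the higher ones in this pair went from 2210 to 1132 and 1652. The members' median of 0.79 became 0.51 with 5 CPM added and 1.06 with library totals alone. A pseudocount of 5 CPM lies within the range of these genes' own levels, which by its construction draws ratios toward 1. The additive fit called 0 genes with edgeR for either term. Without the filter on low counts it called 81 for treatment and 62 for label, and DESeq2 called 337 and 260, with 1 member (Cd8b1) for treatment. Depth limits Ifng and Prf1 most, with 0 to 27 counts in 3 of the 4 libraries.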

Other observations

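Gzmb lies on chromosome 14 beside other granzyme genes and genes of mast cell proteases, and 29 other protein-coding genes of the table lie within 500 kb of it. The nearest granzyme genes were hardly detected: in the AOM/DSS library labelled knockout, Gzmc had 33 counts and Gzmd, Gzme, Gzmf and Gzmg had 1 to 3 counts each, with Gzmn at 0. The mast cell protease genes Mcpt1 (46.8 CPM), Mcpt2 (77.3 CPM) and Cma1 (8.87 CPM) in the same window were, like Gzmb, highest in that library. In the untreated library labelled knockout Mcpt1 stood above untreated WT, at 3.73 against 0.278 CPM, whereas Gzmb stood below it. Another neighbour, Atp12a, a proton and potassium pump gene, followed the label instead, at 2.10 and 2.57 CPM in WT (untreated, AOM/DSS) and 886 and 225 CPM under the knockout label. This window was chosen after values were seen.

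Many other T cell cytokines were near the detection limit. Of 14 listed, 2 reached 50 counts in any AOM/DSS comparison, Tnf and Ltb, both of which other cells also make. Il2, Il4, Il5, Il13, Il17a, Il17f and Il22 had 0 to 5 counts in every library. Il21, a cytokine of helper T cells, had 20 counts in the AOM/DSS library labelled knockout and 0 or 1 in the others. Among 12 homing receptors, Cxcr5, which guides B cells and helper T cells to follicles, was 5.34-fold lower (4.20 to 6.85) in the library labelled knockout of the AOM/DSS pair, as summed B cell markers were lower in that library.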
